A study of Mus musculus with 6 samples.

Results

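RNA of the mitochondrial genome was examined in 6 mouse RNA-seq libraries labelled as bone marrow mesenchymal stromal cells, 3 in which Hes1 was deleted (Hes1 KO) and 3 wild type (WT). Among the gene symbols, 2 start with mt-: mt-Rnr1 and mt-Rnr2, the genes of the 12S and 16S ribosomal RNA. A further 22 rows carry the RefSeq names of the mitochondrial tRNAs (TrnA to TrnY), so 24 of the 37 genes that RefSeq places on the mitochondrial chromosome MT were described, beside 26964 other gene rows. The 13 mitochondrial mRNAs had no row under their RefSeq names in the counts used here and were not analysed. The shares below are therefore shares of rRNA and tRNA and not of all mitochondrial RNA. Hes1, a transcriptional repressor downstream of Notch, was deleted with a floxed allele (the label names heterozygous Hes1fl/+ mice) and Prx1Cre, which acts in early limb bud and some craniofacial mesenchyme. All mice were on a C57BL/6 background, no age or treatment is given, and the sources used here do not say whether WT mice carried Cre or the floxed allele, or how many alleles were deleted. Values are given in the order of replicates 1, 2 and 3. Nothing states whether the libraries of a group came from separate mice, so tests measure the spread between libraries, which may be technical.

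The mitochondrial genome is a small circle that is transcribed on both strands into long RNAs. These are cut mostly at the tRNAs, which lie between the rRNA and mRNA genes like punctuation, so that rRNA, mRNA and tRNA come from shared precursors. The 12S and 16S rRNAs form the small and large subunits of the mitochondrial ribosome, which makes the respiratory chain subunits encoded in the same genome. The library kit selected polyadenylated RNA. Mitochondrial mRNAs carry poly(A) tails, rRNAs short ones, and finished tRNAs carry none, so rRNA and tRNA counts measure what passed that selection.

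The tRNA sequences shown next are the 4 with the most counts (TrnE, TrnS1, TrnL1 and TrnP), TrnC and TrnG, whose levels set libraries apart, and TrnF and TrnV, which flank mt-Rnr1 and had almost no counts. They are GENCODE M21 transcripts (GRCm38), written as DNA from 5′ to 3′, with the anticodon in capitals. They serve glutamate (TrnE), serine (TrnS1), leucine (TrnL1), proline (TrnP), cysteine (TrnC), glycine (TrnG), phenylalanine (TrnF) and valine (TrnV).
TrnE: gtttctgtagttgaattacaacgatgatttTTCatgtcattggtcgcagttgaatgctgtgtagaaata
TrnS1: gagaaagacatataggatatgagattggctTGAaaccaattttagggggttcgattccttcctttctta
TrnL1: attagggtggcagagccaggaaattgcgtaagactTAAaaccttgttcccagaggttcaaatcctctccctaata
TrnP: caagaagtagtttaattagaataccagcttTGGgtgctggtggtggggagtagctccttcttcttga
TrnC: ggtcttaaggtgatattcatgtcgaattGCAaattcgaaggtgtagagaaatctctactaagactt
TrnG: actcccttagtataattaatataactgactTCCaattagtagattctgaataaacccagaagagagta
TrnF: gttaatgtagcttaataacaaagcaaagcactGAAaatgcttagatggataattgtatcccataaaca
TrnV: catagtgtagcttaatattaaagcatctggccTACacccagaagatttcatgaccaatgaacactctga

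The rRNAs are 955 bases (mt-Rnr1) and 1582 bases (mt-Rnr2) long and lie next to each other with TrnV between them. Because the kit selected runs of A, the longest run of A in each is shown with its surroundings, in capitals. Adenine makes up 37.8% of mt-Rnr1 and 38.2% of mt-Rnr2, and the longest run is 5 bases in mt-Rnr1, where it occurs 2 times, and 7 bases in mt-Rnr2, where it occurs 1 time. The last 60 bases, where the short tail is added, follow.
mt-Rnr1, first longest A run: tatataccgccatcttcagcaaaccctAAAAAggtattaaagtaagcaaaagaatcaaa
mt-Rnr2, longest A run: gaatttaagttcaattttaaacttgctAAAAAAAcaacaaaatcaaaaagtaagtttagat
mt-Rnr1, last bases: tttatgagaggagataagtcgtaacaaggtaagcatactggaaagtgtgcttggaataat
mt-Rnr2, last bases: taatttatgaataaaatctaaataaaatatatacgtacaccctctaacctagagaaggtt

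The libraries differed widely in depth and content. The Hes1 KO libraries held 20563116 to 22131465 counts, WT replicates 2 and 3 held 5812598 and 12109170, and WT replicate 1 held 66167, where 1 count equals 15.1 CPM (counts scaled to a fixed library total). Hes1 was at 8.36, 10.4 and 12.4 CPM in Hes1 KO, against 0, 53.3 and 28.5 CPM in the 3 WT libraries, so WT replicate 1, with 0 counts, does not check its label. It fell by 2.55 without that library (log2, SE 0.31, edgeR, Benjamini-Hochberg adjusted p = 0.0294) and did not pass with it (adjusted p = 0.364 in edgeR). Some stromal genes were low: Prrx1, whose promoter drives the Cre, had 0 to 2 counts in each library, and Col1a1 was at 0 to 6.71 CPM. The 15 stromal markers summed to 84.1 to 342 CPM outside WT replicate 1, where they summed to 967 CPM with 11 of them at 0. Runx2 held most of that sum in every library, at 54.3 to 261 CPM outside WT replicate 1 and 922 CPM in it. Eng, the next most abundant, was at 15.1 to 40.8 CPM. Neutrophil markers (15 genes) took 4.99% to 13.4% of counts in Hes1 KO, against 0.0375% to 1.58% in WT, and erythroid markers (12 genes) took 42.9% of WT replicate 3 against at most 0.34% elsewhere. WT replicate 2 was rich in short RNAs that are not polyadenylated, which were chosen after their values were seen: Rn7sk was at 3017 CPM there against at most 212 CPM elsewhere, and Rpph1, the RNA of nuclear ribonuclease P, at 1962 against at most 85.2 CPM. Fewer cells of a type and less RNA per cell cannot be told apart in such bulk samples.

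The 24 mitochondrial rows took less than 1% of counts in every library. Their share was 0.372%, 0.616% and 0.452% in Hes1 KO replicates 1, 2 and 3 and 0.199%, 0.224% and 0.559% in the 3 WT libraries. The groups overlapped, since WT replicate 3 lay above 2 of the Hes1 KO libraries. The means were 0.48% ± 0.124 (SD, n = 3) in Hes1 KO, against 0.327% ± 0.201 (SD, n = 3) in WT, a difference within the spread between libraries (two-sided exact permutation test, p = 0.3, smallest possible p = 0.1). With the erythroid markers taken out of the totals, the share of WT replicate 3 became 0.979%, the highest of all libraries, and the difference between the means shrank from 0.153 to 0.0132 percentage points (exact permutation test, p = 1).

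Counts of mt-Rnr1, the 12S rRNA of the small ribosomal subunit, were 15231, 28353 and 21061 in Hes1 KO, against 45, 7519 and 17594 in the 3 WT libraries. As levels these were 688, 1339 and 1024 CPM in Hes1 KO (mean 1017 ± 326, SD, n = 3) and 680, 1294 and 1453 CPM in WT (mean 1142 ± 408, SD, n = 3). The lowest WT library lay beside the lowest Hes1 KO library and the groups overlapped. The value of WT replicate 1 rests on 45 counts and had a Wilson 95% interval of 508 to 910 CPM, where intervals cover counting error only.

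Counts of mt-Rnr2, the 16S rRNA of the large subunit, were 57382, 94322 and 64536 in Hes1 KO, against 0, 4498 and 48149 in WT. The levels were 2593, 4455 and 3138 CPM in Hes1 KO (mean 3396 ± 958, SD, n = 3) and 0, 774 and 3976 CPM in WT (mean 1583 ± 2108, SD, n = 3). WT replicate 3 lay within the Hes1 KO range, WT replicate 2 far below it, and WT replicate 1 had no count, which allows up to 45.3 CPM. This level of 0 is below all other libraries beyond counting error, although mt-Rnr1 of the same library was counted. With the erythroid markers taken out of the totals, mt-Rnr1 and mt-Rnr2 together took 0.950% of WT replicate 3. In Hes1 KO they took 0.328%, 0.580% and 0.418%, so the place of WT replicate 3 depends on the total used.

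**Figure D1:**
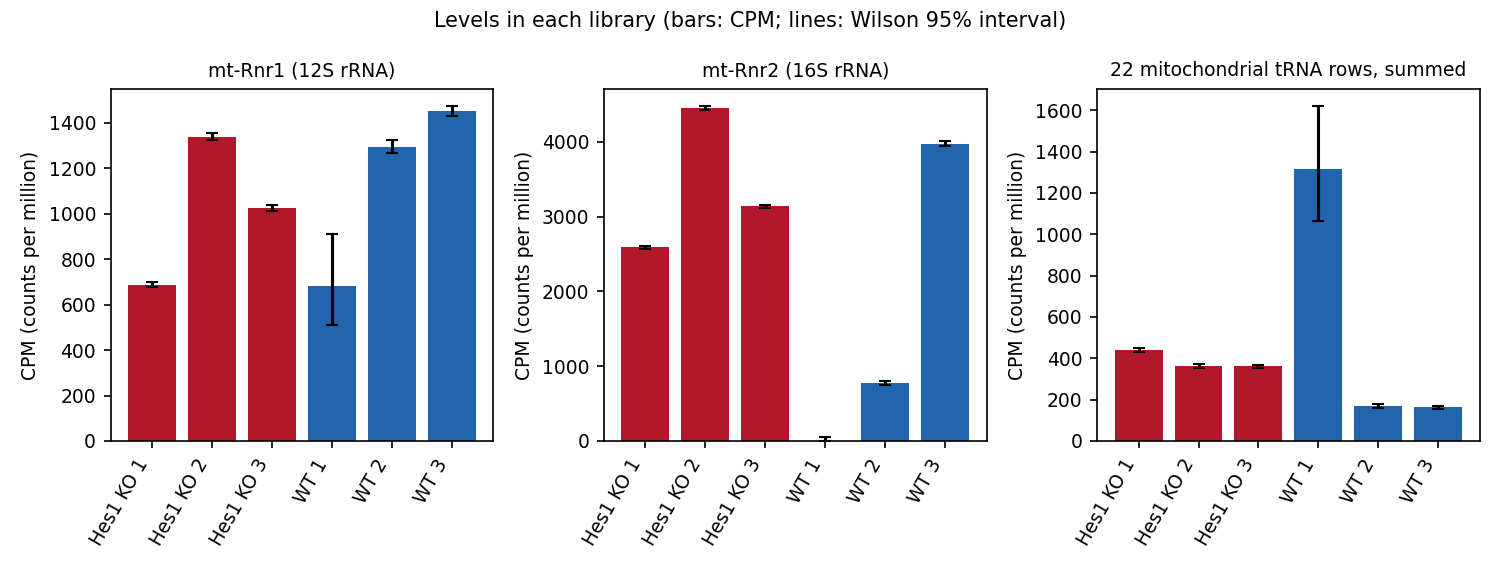
Levels of mt-Rnr1, mt-Rnr2 and the summed 22 tRNA rows in each library, as bars in CPM on linear axes from 0 with Wilson 95% intervals (Hes1 KO red, WT blue). WT replicate 1 has 0 counts of mt-Rnr2 and the highest tRNA level, 1315 CPM, and WT replicates 2 and 3 have the lowest tRNA levels.

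The balance of the rRNAs, a quantity chosen after the values were seen, kept the groups apart where their levels overlapped. The 16S made up 79.0%, 76.9% and 75.4% of the rRNA counts in Hes1 KO, and 0%, 37.4% and 73.2% in the 3 WT libraries. All Hes1 KO libraries lay above all WT libraries, but WT replicate 3 was only just below them, and the spread was 1.82 (SD, n = 3) in Hes1 KO against 36.6 (SD, n = 3) in WT. The difference between the means was 40.2 percentage points, and 21.8 without WT replicate 1. It is given as a description with no test, since the separation was seen before the quantity was chosen.

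Per base of gene length, the 16S was counted 2.27, 2.01 and 1.85 times as often as the 12S in Hes1 KO, against 1.65 times in WT replicate 3. In WT replicate 2 the order was turned, with a ratio of 0.361. WT replicate 1 had 0 of 45 rRNA counts from the 16S, and its exact 95% interval ends at 7.87%, below the 37.4% of WT replicate 2 and far below the other libraries. The low 16S share of WT replicate 2 stood beside its high Rn7sk and Rpph1 levels. Hes1 KO replicate 3 had the next highest levels of both, 212 and 85.2 CPM, and a 16S share of 75.4%. WT replicate 1 had 0 counts of both and a 16S share of 0%. The part of these RNAs was not tested.

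**Figure D2:**
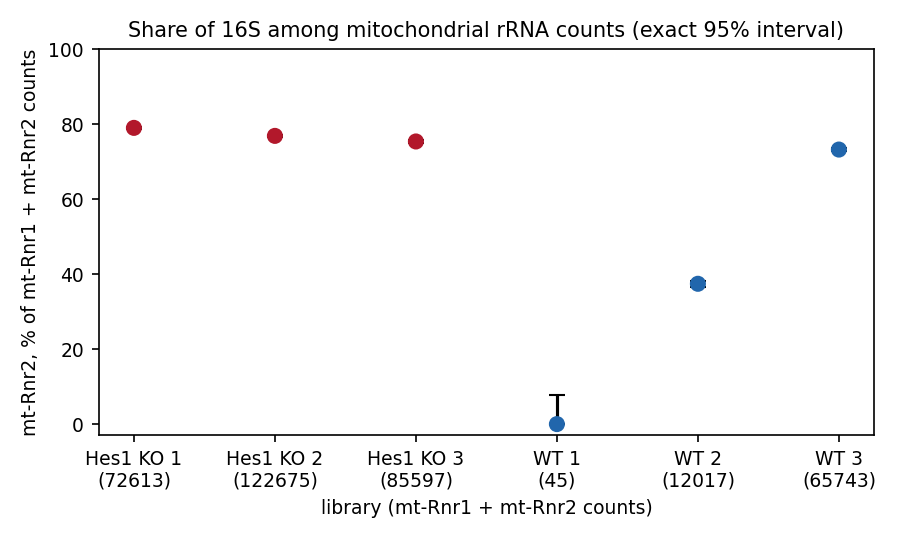
Share of mt-Rnr2 in the summed mt-Rnr1 and mt-Rnr2 counts of each library, in percent, with exact 95% intervals and the number of rRNA counts under each name (Hes1 KO red, WT blue). The Hes1 KO libraries lie between 75.4% and 79.0%, WT replicate 3 is close to them at 73.2%, and WT replicates 2 and 1 are at 37.4% and 0%.

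In all libraries but WT replicate 1, the tRNA rows together held far fewer counts than the rRNAs. They had 9745, 7681 and 7429 counts in Hes1 KO, or 0.044%, 0.0363% and 0.0361% of the library, and 87, 982 and 1983 counts in the 3 WT libraries, or 0.131%, 0.0169% and 0.0164%. WT replicates 2 and 3 thus lay below every Hes1 KO library, while WT replicate 1 lay above all of them. Over all libraries the means were 0.0388% ± 0.00452 (SD, n = 3) in Hes1 KO, against 0.0549% ± 0.0663 (SD, n = 3) in WT (two-sided exact permutation test, p = 1). Without WT replicate 1 the Hes1 KO mean was 2.33 times the WT mean (exact permutation test, p = 0.2, the smallest for 3 against 2). Beside that difference, neutrophil markers took 4.99%, 13.4% and 6.1% of the Hes1 KO libraries. In WT replicates 2 and 3 they took 1.58% and 0.0375%. Macrophage markers (14 genes) took 1.02% to 2% against 0.208% and 0.0174%. Lyz2 alone held 7970, 18329 and 9426 CPM of their sums of 10151, 20047 and 11235 CPM in Hes1 KO. It held 1597 of 2080 CPM in WT replicate 2 and 51.4 of 174 CPM in WT replicate 3. B cell markers (10 genes) took 0.179% to 0.296% against 0.689% and 0.389%. In WT replicate 1, with the highest tRNA share, neutrophil, macrophage and B cell markers took 1.11%, 0.456% and 0.0589%. The part of these cells was not tested. With the erythroid markers taken out of the totals, the tRNA share of WT replicate 3 rose to 0.0287%, still below the lowest Hes1 KO share of 0.0363% on that scale.

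Per 100 rRNA counts, there were 13.4, 6.26 and 8.68 tRNA counts in Hes1 KO, against 193, 8.17 and 3.02 in the 3 WT libraries. WT replicate 1 was the 1 library with more tRNA than rRNA counts. The other WT libraries lay within or below the Hes1 KO range, so the groups overlapped.

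A small set of tRNAs held most counts. TrnE, TrnS1, TrnL1 and TrnP summed to 77.5%, 83.5% and 81.5% of tRNA counts in Hes1 KO, against 92%, 62.5% and 87.7% in the 3 WT libraries. TrnE, which lies between ND6 and CYTB, was the most counted in every Hes1 KO library, at 34.2% to 34.8% of tRNA counts. It made up 32.3% in WT replicate 3 and 18.2% in WT replicate 2. In WT replicate 1 it made up 5.75% (5 of 87 counts, Wilson 95% interval 2.48% to 12.8%). The Hes1 KO libraries were close to each other in this make-up and the WT libraries were not.

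The counted tRNAs lie all around the genome. TrnE, TrnS1 and TrnP are among 8 tRNAs encoded on the strand opposite to most genes, and those 8 held 65.4% to 68.4% of tRNA counts in Hes1 KO, against 67.8% to 74.9% in WT. TrnS1 overlaps the end of COX1 by 3 bases on the opposite strand, and TrnL1 follows mt-Rnr2 directly and is followed by ND1. TrnF and TrnV, on either side of mt-Rnr1, had 0 to 1 and 0 to 3 counts per library, and TrnD, between TrnS1 and COX2, had 0 to 6. The kit keeps the strand, but no source used here gives the strand setting of the counting. Reads of a tRNA therefore cannot be told apart from reads of the RNA on the other strand, nor from reads of uncut precursors that reach into it.

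**Figure D3:**
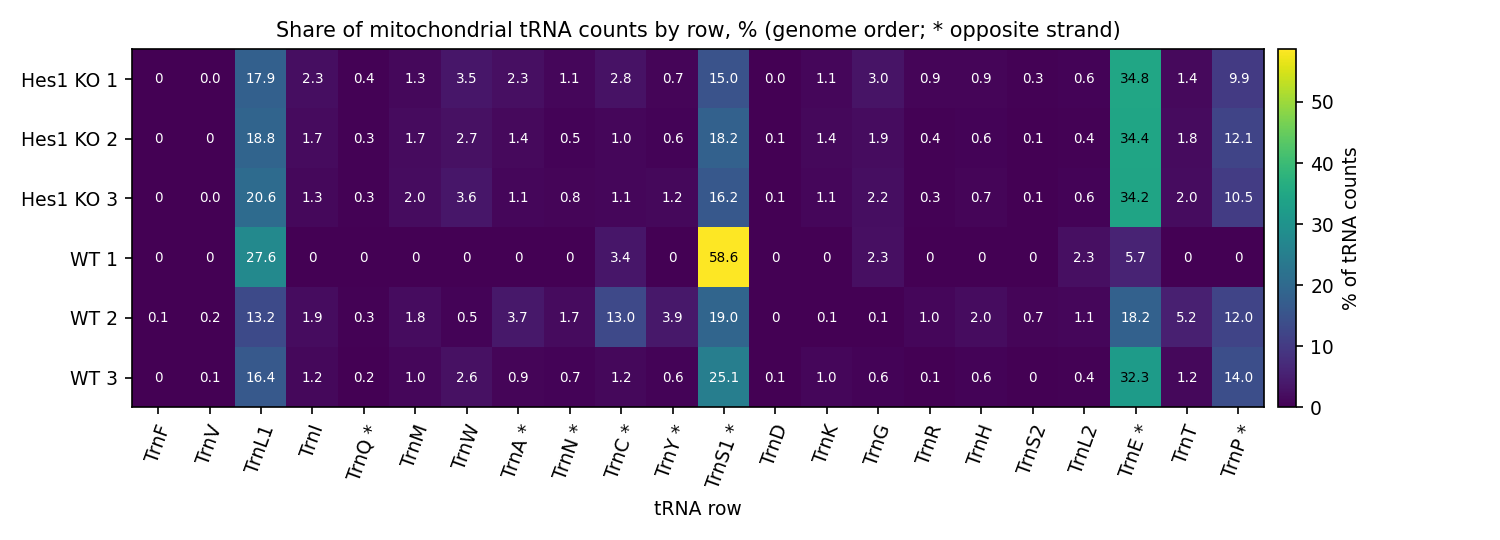
Share of each tRNA row in the tRNA counts of a library, in percent, with tRNAs in genome order and a star on those encoded on the opposite strand. TrnE leads in the Hes1 KO libraries at 34.2% to 34.8%, TrnS1 leads in WT replicate 1 at 58.6%, and TrnC stands out in WT replicate 2 at 13%.

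The 6 tRNAs with the highest mean CPM were TrnS1, TrnL1, TrnE, TrnP, TrnC and TrnG. WT replicate 1 set that order: without it the mean of TrnS1 was 52.7 instead of 172 CPM, behind TrnE at 97.0 and TrnL1 at 54.1, and TrnG (5.82 CPM) moved to place 8, behind TrnW (8.68 CPM). The glutamate tRNA TrnE was at 153, 125 and 123 CPM in Hes1 KO, against 75.6, 30.8 and 52.9 CPM in the 3 WT libraries. Each Hes1 KO library lay above each WT library, though the 5 counts of WT replicate 1 leave a Wilson 95% interval of 32.3 to 177 CPM. Per length, TrnE reached 1789 to 2218 CPM per kilobase in Hes1 KO, where mt-Rnr2 was at 1639 to 2816 and mt-Rnr1 at 721 to 1402. These values divide by annotated lengths, 69 bases for TrnE. Reads of uncut precursors cannot be told apart, so the values do not compare amounts of finished RNA. The proline tRNA TrnP, the last gene before the control region, was at 43.5, 43.8 and 38.0 CPM in Hes1 KO, against 0, 20.3 and 22.9 CPM in WT. Its 0 in WT replicate 1 allows up to 45.3 CPM, above the Hes1 KO levels, so that library says nothing about TrnP.

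The serine tRNA TrnS1 and the leucine tRNA TrnL1 were ordered differently by WT replicate 1. TrnS1 was at 65.8, 65.9 and 58.6 CPM in Hes1 KO, against 771, 32.2 and 41.0 CPM in the 3 WT libraries. TrnL1 was at 78.8, 68.3 and 74.4 CPM in Hes1 KO, against 363, 22.4 and 26.8 CPM in WT. In both, WT replicates 2 and 3 were below every Hes1 KO library and WT replicate 1 was far above. The 51 and 24 counts behind the WT replicate 1 values have Wilson 95% intervals of 586 to 1013 and 244 to 540 CPM, so counting error does not reach the other libraries. TrnS1 alone took 58.6% of the 87 tRNA counts in that library.

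The cysteine tRNA TrnC was at 12.2, 3.59 and 3.94 CPM in Hes1 KO, against 45.3, 22 and 1.98 CPM in the 3 WT libraries, with 3 counts behind the value of WT replicate 1. Libraries of both groups were high and low. Its share of tRNA counts was 13% in WT replicate 2 against 0.989% to 2.76% in Hes1 KO. The cluster of TrnW, TrnA, TrnN, TrnC and TrnY between ND2 and COX1 held 22.8% of tRNA counts in WT replicate 2, against 6% in WT replicate 3 and 6.28% to 10.4% in Hes1 KO.

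The glycine tRNA TrnG, between COX3 and ND3, had the largest ratio of Hes1 KO to WT replicates 2 and 3 among the 24 rows. It had 291, 146 and 164 counts in Hes1 KO, or 13.1, 6.90 and 7.98 CPM, and 1 and 11 counts in WT replicates 2 and 3, or 0.172 and 0.908 CPM. The 2 counts of WT replicate 1 make 30.2 CPM (Wilson 95% interval 8.29 to 110 CPM), above every Hes1 KO library. The Hes1 KO mean was 17.3 times the mean of WT replicates 2 and 3, and the next largest ratio was 5.05 (TrnK).

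The other 16 tRNAs stayed at or below 15.4 CPM (TrnW) outside WT replicate 1, where 15 of them had 0 counts, too few to place them at 15.1 CPM a count. In CPM, 7 of the 22 tRNAs, all among the 18 tested, were higher in every Hes1 KO library than in every WT library. The share over all genes tested was 24.7%, and 0 tRNAs were lower in every library, beside 1.02%. The 7 higher ones were TrnI, TrnQ, TrnM, TrnW, TrnK, TrnE and TrnP, and all but TrnE had 0 counts in WT replicate 1. Without WT replicate 1 the count was 10 of 22, all among the 19 tested, with TrnL1, TrnS1 and TrnG added. The share over all genes tested was 35.1%, and 0 tRNAs were lower, beside 7.54%. CPM rests on library totals, and erythroid markers took 42.9% of WT replicate 3. With TMM scaling and without WT replicate 1, the log2 fold changes of those 10 ran from -0.10 (TrnS1) to 2.88 (TrnG). That of TrnP was 0.10, and TrnS1 had the only value below 0.

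In the edgeR fit over all genes no mitochondrial row passed. With all libraries 20 of the 24 rows could be tested (TrnF, TrnV, TrnD and TrnS2 had too few counts), and 0 passed at an adjusted p of 0.05. The smallest value was that of TrnS1 (log2 fold change -1.77, SE 0.90, edgeR, Benjamini-Hochberg adjusted p = 0.39), and 0 had an unadjusted p under 0.05, against 14.9% of all 14756 genes tested. DESeq2 and limma-voom called 0 of the 20 as well, beside 5.38% and 0% of the genes they tested. Over all genes edgeR called 0% with these libraries. The log2 fold changes were -0.86 (SE 0.88) for mt-Rnr1 and -0.16 (SE 1.85) for mt-Rnr2. These use TMM scaling, which sets libraries against the bulk of genes and gave WT replicate 3, with its globin RNA, a factor of 0.397. With library size alone mt-Rnr2 had a log2 fold change of 1.09, so its sign depends on the scaling.

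Without WT replicate 1, 21 rows were tested and 0 passed, beside 15.5% of all 16190 genes tested (7.44% higher and 8.09% lower in Hes1 KO). TrnG had the smallest value and the only unadjusted p under 0.05 among these rows, beside 39.8% of all genes tested (log2 fold change 2.88, SE 1.03, edgeR, Benjamini-Hochberg adjusted p = 0.0988). DESeq2 called TrnG higher in that set of libraries (log2 fold change 2.85, DESeq2 adjusted p = 0.00826) and no other row, which is 1 of 21 beside 30.9% of all genes that DESeq2 tested, and limma-voom called 0, beside 8.89%. The value of TrnG was 1.94 against WT replicate 3 alone and 5.92 against WT replicate 2 alone (edgeR). mt-Rnr1 and mt-Rnr2 had log2 fold changes of -1.26 (SE 0.70) and -0.69 (SE 1.24). Of the 19 tested tRNAs 16 had a log2 fold change above 0, with a median of 0.46 against 0.02 over all genes tested, where 50.7% lay above 0.

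**Figure D4:**
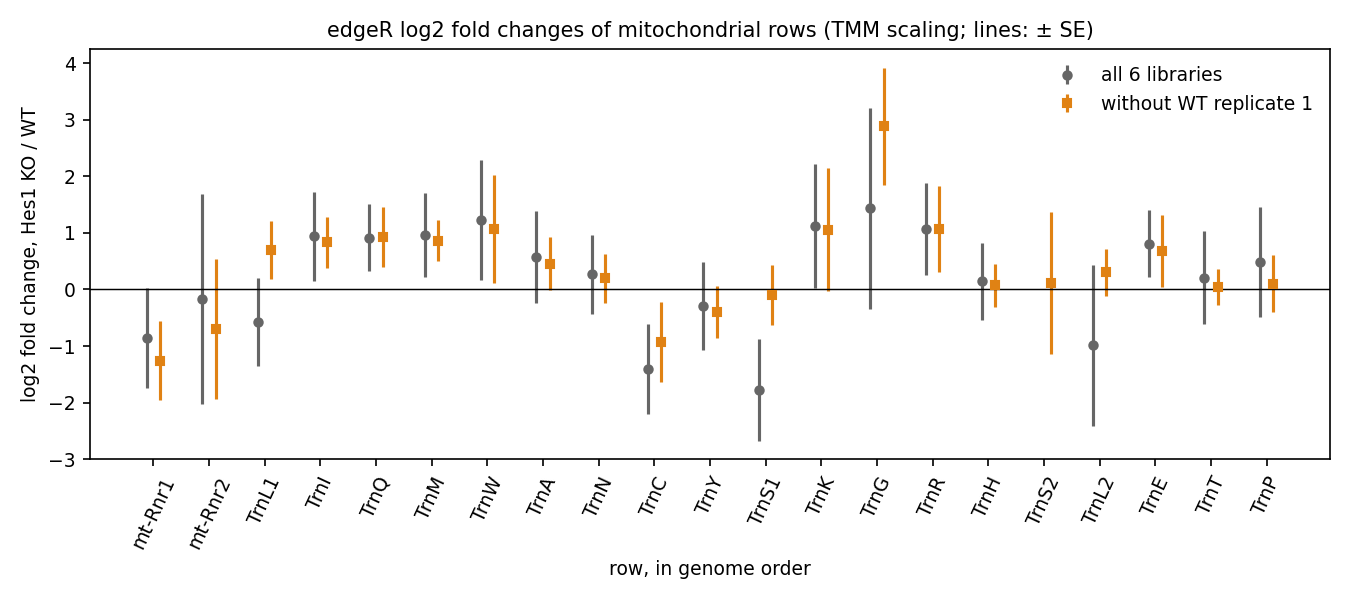
Log2 fold changes of the tested mitochondrial rows, Hes1 KO over WT, from edgeR with TMM scaling, with ± 1 SE, for all libraries (grey) and without WT replicate 1 (orange), in genome order. No row passed in either fit, TrnG has the largest value without WT replicate 1 (2.88), and TrnL1 and TrnL2 change sign between the fits.

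Nuclear genes that serve mitochondrial RNA and function were compared in the same fits, where with all libraries 0 passed (edgeR). The values below are therefore those without WT replicate 1, with the percentages of all genes called given above. Of 15 genes that transcribe or copy mitochondrial DNA, 1 fell and 0 rose (median log2 fold change 0.20). Mterf2, a member of the mitochondrial transcription terminator family, was at 6.78, 6.85 and 9.63 CPM in Hes1 KO, against 17.9 and 10.2 CPM in WT replicates 2 and 3, and fell by 1.46 (log2, SE 0.33, edgeR, Benjamini-Hochberg adjusted p = 0.0432). WT replicate 1 had 0 counts of it. With all libraries Mgme1, an exonuclease of mitochondrial DNA, and Mterf4 had the smallest p in that list, with log2 fold changes of 0.94 and 1.14 (edgeR, Benjamini-Hochberg adjusted p = 0.354 and 0.529).

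Of 28 genes that cut, tail, hold or degrade mitochondrial RNA, 1 rose and 0 fell (median 0.24). Slirp, which with Lrpprc protects mitochondrial mRNAs from decay, was at 37.6, 33.8 and 28.0 CPM in Hes1 KO, against 9.12 and 4.05 CPM in WT replicates 2 and 3. It rose by 1.83 (log2, SE 0.28, edgeR, Benjamini-Hochberg adjusted p = 0.03), but was at 60.5 CPM in WT replicate 1, where 4 counts leave a Wilson 95% interval of 23.5 to 155 CPM that spans the Hes1 KO levels. The smallest p in that list with all libraries were those of Rexo2, an exonuclease of short mitochondrial RNA, and Hsd17b10, a subunit of the mitochondrial ribonuclease P that cuts tRNAs at their 5′ ends. Their log2 fold changes were 1.22 and 1.40 (edgeR, Benjamini-Hochberg adjusted p = 0.342 and 0.488). Rexo2 was at 74.6, 46.5 and 60.2 CPM in Hes1 KO, against 15.1, 21.8 and 15.3 CPM in WT, but the value of WT replicate 1 is 1 count, whose Wilson 95% interval ends at 85.6 CPM, so that library does not place Rexo2 below Hes1 KO.

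Of 12 tested translation factors, 1 rose (median 0.35). Tsfm, the exchange factor of the mitochondrial elongation factor Tu, was at 20, 14.5 and 17.7 CPM in Hes1 KO, against 15.1 (1 count), 9.29 and 2.73 CPM in the 3 WT libraries, and rose by 1.17 (log2, SE 0.24, edgeR, Benjamini-Hochberg adjusted p = 0.0369). With all libraries its value was 1.04 and that of the release factor Mtrf1 1.36, and neither passed (edgeR, Benjamini-Hochberg adjusted p = 0.324 and 0.425).

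Of 23 tested genes of mitochondrial content and its regulators, 2 rose and 1 fell (median 0.30). Ppargc1a, the coactivator PGC-1alpha that drives mitochondrial biogenesis, was at 0.859, 0.331 and 1.56 CPM in Hes1 KO, against 13.2 and 3.47 CPM in WT replicates 2 and 3. It fell by 3.53 (log2, SE 0.60, edgeR, Benjamini-Hochberg adjusted p = 0.0305) and had 0 counts in WT replicate 1. The outer membrane channel genes Vdac1 and Vdac3 rose by 0.99 and 0.98 (log2, edgeR, Benjamini-Hochberg adjusted p = 0.0393 and 0.0355). Vdac1 was at 171 to 240 CPM in Hes1 KO, against 196, 125 and 37.6 CPM in WT, so WT replicate 1 (13 counts, Wilson 95% interval 115 to 336 CPM) lay within the Hes1 KO range.

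Of 26 nuclear respiratory chain subunits, 8 rose and 0 fell (median 0.95). Succinate dehydrogenase, the complex with no mitochondrially encoded subunit, gave 3 of these from 4 tested genes, and the other complexes and cytochrome c gave 5 of 22 (median 0.90). Sdhd, an anchor of succinate dehydrogenase, rose by 1.33 (log2, SE 0.21, edgeR, Benjamini-Hochberg adjusted p = 0.0301), from 64.9 and 23.8 CPM in WT replicates 2 and 3 to 143 to 160 CPM in Hes1 KO. Ndufv2 rose by 1.55, Ndufa9 by 1.20 and Cox5a by 0.98 (log2). Of these, Ndufa9 was at 302 CPM in WT replicate 1 (20 counts, Wilson 95% interval 196 to 467 CPM), above the 87.5 to 117 CPM of Hes1 KO, and the other 3 had 0 counts there. With all libraries Sdhb and Uqcrfs1, subunits of succinate dehydrogenase and of the cytochrome bc1 complex, had the smallest p, with log2 fold changes of 1.12 and 1.28 (edgeR, Benjamini-Hochberg adjusted p = 0.31 and 0.317). The calls of these lists rest on the set of libraries: without WT replicate 1 and any 1 of the Hes1 KO libraries, 0 genes of the whole table passed, and likewise with library size alone. Markers of other cells differed in both directions, and their part was not tested. Without WT replicate 1, log2 fold changes were above 0 for 7 of 8 tested T cell markers (0 passed). The same held for 6 of 10 tested stromal markers (0 passed). With WT replicate 1 left out, 11 of 11 tested macrophage markers had log2 fold changes above 0 (6 passed), as did 15 of 15 neutrophil markers (1 passed), while 10 of 10 B cell markers (2 passed) and 12 of 12 erythroid markers (0 passed) had values below 0.

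**Figure D5:**
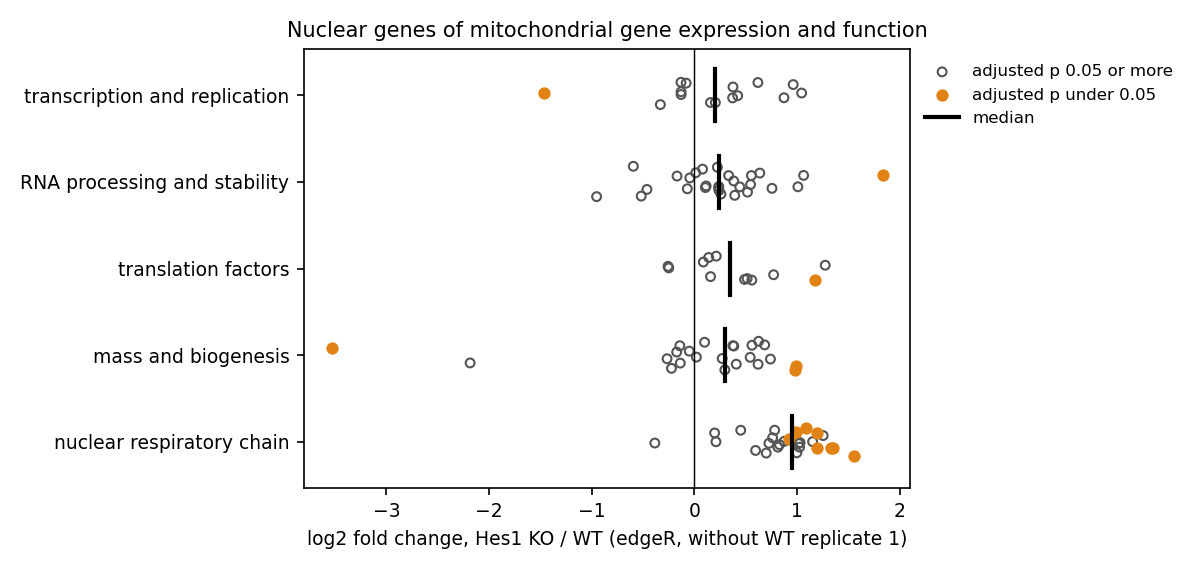
Log2 fold changes of nuclear genes of 5 mitochondrial lists, Hes1 KO over WT, from edgeR without WT replicate 1, with 1 point per gene, filled where the adjusted p was under 0.05, and the median as a bar. Most respiratory chain subunits lie to the right of 0 (median 0.95), Ppargc1a is the lowest point (-3.53) and Slirp the highest (1.83).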

How the data were processed

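The authors deposited raw read counts per gene symbol, made with featureCounts per the name of the file, and the submitters' processing notes name GRCm39, edgeR and limma. No source used here gives the aligner, annotation, strand setting, versions or the handling of reads with several matches, so reads shared with nuclear copies of mitochondrial genes are uncertain. Members are the rows starting with mt- plus the rows that RefSeq (GRCm38.p6) lists as MT tRNAs. Their order and lengths came from GENCODE M21 (GRCm38), and no coordinate is printed.

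Counts were fitted over all genes with edgeR 4.0.16 in R 4.3.3 (filterByExpr, TMM, quasi-likelihood test, legacy option off, Benjamini-Hochberg adjustment, threshold 0.05). The SE is the fold change over the square root of F. DESeq2 1.42.0, limma-voom (limma 3.58.1), other scalings and filters, the replicate block and leaving out each library were alternatives. Shares were compared by exact permutation tests (scipy 1.17.1) and have Wilson 95% intervals, and a count of 0 allows up to 3 counts. Depths were 66167 to 22131465 counts. Scripts were tested on simulated data.

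Named genes are both rRNAs, the 6 tRNAs with the highest mean CPM, any tRNA that passed, Hes1, and of each list up to 4 passing genes with the smallest p, or the 2 smallest where none passed. Other tRNAs named for a position or an order were chosen after their values were seen. Members and lists were chosen with earlier results of these data known. Planned tests on mitochondrial mRNAs could not be made.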

Additional observations from a re-analysis of the deposited data

How the results depend on the processing

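With all libraries, 0 mitochondrial rows passed under each scaling, filter and tool tried, and 0 passed in edgeR with any 1 library left out. The count over all genes was 0 in edgeR, 782 in DESeq2, and 0 to 2513 with 1 library left out. Without WT replicate 1, the 2513 calls became 4997 in DESeq2, 1440 in limma-voom and 0 with library size only, and 0 to 6210 with another library left out. Calls of mitochondrial rows then numbered 1 in DESeq2 (TrnG) and 0 to 9 with another library left out: 2 of 21 against WT replicate 3 alone (mt-Rnr1 lower at -1.89, TrnG higher at 1.94), where 4809 genes (29%) passed, and 9 of 21, all higher, against WT replicate 2 alone, where 6210 (35.5%) passed. The lone WT library is assumed to vary like the others. Library size only moved the median over all genes to 0.26 with all libraries and 0.44 without WT replicate 1, from 0.03 and 0.02.

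With 1 library left out, the difference between group means ranged from 0.0848 to 0.269 percentage points for the share of all 24 rows, 0.0664 to 0.304 for the rRNA share, -0.0354 to 0.0222 for the tRNA share and 21.8 to 58.4 for the 16S share of rRNA counts. The tRNA difference (-0.0161) turned positive without WT replicate 1 and on the log2 scale (0.222). Of 232 log2 fold changes of named rows under alternatives, 21 turned their sign. Those include mt-Rnr2 (2.42) and TrnS1 (1.23) against WT replicate 2 alone, from -0.69 and -0.10 without WT replicate 1. Outside fits with a lone WT library, only TrnG newly passed, in DESeq2 without WT replicate 1. With all libraries mt-Rnr2 turned positive with library size only (1.09), no filter (0.040), limma-voom (2.64) and the replicate block (2.84), and TrnL1 with limma-voom (0.57) and the block (0.031). Without WT replicate 1, mt-Rnr2 turned positive with library size only (0.52) and limma-voom (0.26), and TrnS1 with library size only (0.79), no filter (0.059) and limma-voom (0.26). The cause was not tested beyond the settings' own construction.

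With 1 library left out the ranges were -1.36 to 0.35 for mt-Rnr1, -0.82 to 3.26 for mt-Rnr2, -1.16 to 0.70 for TrnL1 and 0.22 (without WT replicate 2) to 3.18 for TrnG. Without WT replicate 1 and another library they were -1.60 to 2.42 for mt-Rnr2, -0.77 to 1.23 for TrnS1, -0.065 to 2.36 for TrnE, -0.53 to 1.29 for TrnP, -1.68 to 0.29 for TrnC and 1.94 to 5.92 for TrnG. Same-numbered libraries deviated together with r = 0.174, -0.015 and 0.282 for numbers 1, 2 and 3. Hes1 KO replicate 1 had 0.006 and -0.265 with the other WT numbers, and Hes1 KO replicate 3 had -0.197 and 0.015. These 2 thus correlated best with their own number, and Hes1 KO replicate 2 did not. Deviations were taken from the mean of each group and cancel out within it. The correlations therefore constrain each other, and the 2 matches are not separate evidence of pairing. What a shared number stands for was not tested. With the replicate block 0 genes and 0 mitochondrial rows passed. The 66167 counts of WT replicate 1 cannot place a gene below about 45.3 CPM.

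The alternatives without WT replicate 1, other than leaving it out itself, and the 16S share were chosen after seeing the data. Alternatives on mitochondrial mRNAs were not run.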
